A study of Mus musculus with 6 samples.

Results

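Teneurins, latrophilins and FLRT proteins are 3 small families of cell-surface proteins that bind one another, and their 10 mouse genes, taken by symbol from a table of 24594 genes, are described here. They are the teneurins Tenm1, Tenm2, Tenm3 and Tenm4, the latrophilins Adgrl1, Adgrl2 and Adgrl3, and the fibronectin leucine-rich repeat transmembrane (FLRT) genes Flrt1, Flrt2 and Flrt3. All 10 had counts in every library, and all 10 were among the 13115 genes that passed the filter on low counts. The data were nuclear RNA-seq libraries of NeuN-positive nuclei sorted from the cerebellum of 7-month-old mice, labelled as granule cells, which are excitatory neurons of the cerebellum and its most common kind. The 3 cKO libraries carried the genotype Ezh1(cKO/cKO);Neurod1-Cre and the 3 WT libraries Ezh1(wt/wt);Neurod1-Cre, so the Cre was shared by both groups. Ezh1 encodes a catalytic subunit of Polycomb repressive complex PRC2, which methylates lysine 27 of histone H3, and the comparison asks what its loss does to the RNA of neurons that have stopped dividing. The labels name the Cre after Neurod1, a gene of granule neurons, and do not say how it was placed in the genome, nor that each library came from a separate animal, so part of the spread behind the p-values may be technical.

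Teneurins are very large single-pass proteins that pair with latrophilins across the synaptic cleft, and that also join with teneurins of the same kind. Latrophilins are adhesion G protein-coupled receptors, first found through their binding of the spider venom protein alpha-latrotoxin. They hold teneurins and FLRT proteins with separate parts of their extracellular region, and FLRT proteins in turn bind UNC5 guidance receptors. In the mouse cerebellum, latrophilins of Purkinje cells are needed for the synapses that granule cell axons, the parallel fibres, make on them.

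The libraries held 6340236 to 8284768 counts each. Nuclear RNA holds unspliced transcripts, so levels are not those of cytoplasmic mRNA. They are given in CPM, the counts scaled to 1000000 counts of a library by its total and its TMM factor (a scaling that lines up the bulk of genes between libraries). Ezh1 itself was at 52.5, 51.0 and 55.6 CPM in the cKO libraries and 71.0, 75.7 and 83.3 CPM in the WT libraries (log2 fold change -0.53, edgeR adjusted p = 0.00672), lower in each cKO library than in each WT library. The labels do not name the deleted exons, and RNA of the remaining ones is counted too. All 16 granule cell markers on the list used had counts, led by Fat2 (1281 to 1737 CPM) and Grin2c (873 to 1096 CPM). Of the 16, edgeR called 1 higher in cKO and 1 lower. Neurod1 was higher, at 317, 318 and 287 CPM in cKO and 138, 154 and 134 CPM in WT (log2 fold change 1.11, edgeR adjusted p = 8.03e-10). Neurod2 was lower, at 66.2, 66.1 and 59.3 CPM in cKO and 80.7, 95.4 and 82.9 CPM in WT (-0.44, edgeR adjusted p = 0.0269). Neurod2 was not called by limma-voom. Xist, which is transcribed from an inactive X chromosome, was at 831 CPM in cKO library 1 and 811 CPM in WT library 1, and the other 4 libraries at 1.39 to 4.46 CPM. Y-linked genes summed to 2.45 CPM in cKO library 1 and 1.51 CPM in WT library 1, and to 123 to 148 CPM in the other 4. That is the pattern of female nuclei in the libraries 1 and of male nuclei in the others. Defining markers of some other cells were low: Pcp2 of Purkinje cells lay between 7.52 and 13.4 CPM, Cx3cr1 of microglia between 0.971 and 1.39 CPM, and Cldn5 of vessels between 0 and 0.462 CPM. The interneuron marker Gad1 lay between 32.4 and 45.3 CPM. Oligodendrocyte markers were well detected, led by Mbp, which encodes a protein of myelin (150.4 to 298 CPM in cKO nuclei and 113 to 205 CPM in WT). In such bulk samples, fewer cells of a type and less RNA per cell cannot be told apart.

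No member was called changed at an adjusted p below 0.05, by edgeR's quasi-likelihood test with Benjamini-Hochberg adjustment over all tested genes, where 0.579% of them were called (0.320% higher). DESeq2 and limma-voom also called 0 of the 10, though DESeq2, which sets aside genes of low level, gave no adjusted p to Tenm3, Tenm4, Adgrl2, Flrt2 and Flrt3 (its unadjusted p was 0.00081 for Tenm3 and 0.000381 for Adgrl2). At an unadjusted p below 0.05 in edgeR there were 3 of the 10, Tenm1, Tenm3 and Adgrl2, each with the higher mean in cKO, where 5.80% of all tested genes were higher and 6.05% lower at that threshold. For 8 of the 10 members the whole 95% interval of the fold change lay within 2-fold, against 81.0% of all tested genes, and the exceptions were Tenm3 and Adgrl2. The log2 fold change was positive for 9 of the 10, where 48.8% of all tested genes were positive, and the median was 0.17 over the members and -0.01 over all tested genes. Flrt2 was the exception.

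**Figure D1:**
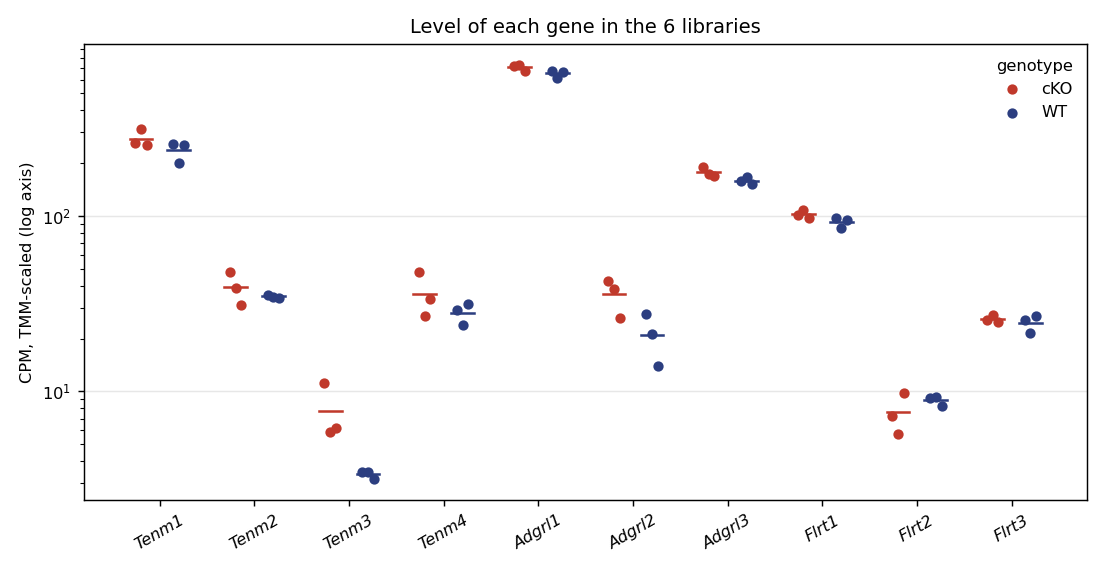
CPM (log axis) of each of the 10 genes in the 3 cKO libraries (red, left) and the 3 WT libraries (blue, right), with a bar at the mean. The libraries of the genotypes do not overlap for Tenm3, Adgrl1 and Adgrl3, and Adgrl1 lies far above the rest, between 614 and 729 CPM.

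**Figure D2:**
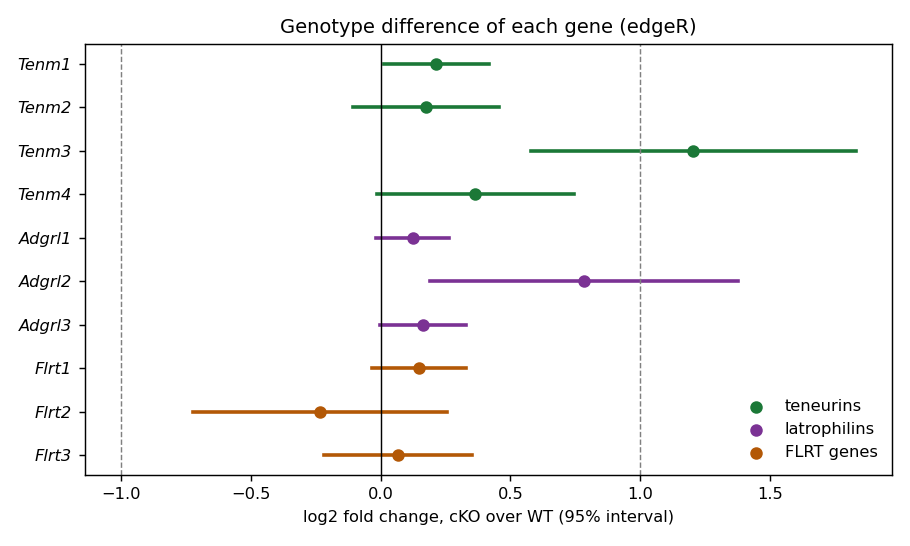
Log2 fold change of each gene, cKO over WT, with its 95% interval from the edgeR fit, coloured by family, with dashed lines at a 2-fold difference. Tenm3 (1.20) and Adgrl2 (0.78) lie farthest from 0 with the widest intervals, and the intervals of the other 8 genes lie inside the dashed lines.

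Tenm3 and Adgrl2 are the members with the largest fold changes and Adgrl1 is the most abundant one, so the sequence at a start site of each is shown first. Each window runs from 250 bases before to 50 bases after an annotated transcript start, as RefSeq gives it on GRCm38.p6, is printed 5′ to 3′ on the strand of the gene, and has each CpG in capitals. CpG-rich start sites are the usual places of Polycomb complexes in mammals, as background to the genotype. The Tenm3 window (chr8:48674641-48674940, minus strand) and the Adgrl2 window (chr3:148954586-148954885, minus strand) lie at starts inside the annotated spans of their genes, and the Adgrl1 window (chr8:83899848-83900147, plus strand) lies at the start of its span.
Tenm3: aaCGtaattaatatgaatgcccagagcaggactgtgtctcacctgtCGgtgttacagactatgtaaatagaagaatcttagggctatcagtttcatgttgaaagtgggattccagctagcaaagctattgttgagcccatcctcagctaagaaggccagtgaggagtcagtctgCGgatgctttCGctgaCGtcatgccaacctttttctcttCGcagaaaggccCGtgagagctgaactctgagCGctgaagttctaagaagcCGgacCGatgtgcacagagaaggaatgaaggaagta
Adgrl2: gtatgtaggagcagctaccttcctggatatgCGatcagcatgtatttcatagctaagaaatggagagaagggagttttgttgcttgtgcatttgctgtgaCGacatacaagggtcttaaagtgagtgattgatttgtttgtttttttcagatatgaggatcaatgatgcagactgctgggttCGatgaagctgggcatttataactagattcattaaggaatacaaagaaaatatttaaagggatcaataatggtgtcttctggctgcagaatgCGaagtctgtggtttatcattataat
Adgrl1: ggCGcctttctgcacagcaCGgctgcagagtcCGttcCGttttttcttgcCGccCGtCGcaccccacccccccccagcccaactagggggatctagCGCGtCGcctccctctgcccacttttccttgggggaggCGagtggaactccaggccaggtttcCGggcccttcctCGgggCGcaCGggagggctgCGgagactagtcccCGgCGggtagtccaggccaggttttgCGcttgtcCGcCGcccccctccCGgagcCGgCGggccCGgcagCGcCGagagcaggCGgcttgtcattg
The Tenm3 window holds 10 CpG, a number that 43.5% of all 32851 windows reach, the Adgrl2 window 4 (68.6%) and the Adgrl1 window 28 (14.2%). The windows of the other members for which there was one ran from 0 CpG at Tenm1 to 40 at the first of the 3 windows of Adgrl3. No window was on hand for Flrt1. No chromatin was measured in these libraries, and the windows say only what the sequence is.

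Among the teneurins, Tenm3 differed most between the genotypes. In mice its protein guides topographic wiring in the visual system and the hippocampus. Its counts were 78, 38 and 40 in the cKO libraries and 23, 25 and 26 in the WT libraries, or 11.2, 5.87 and 6.16 CPM in cKO nuclei and 3.48, 3.48 and 3.16 CPM in WT. Every cKO library lay above every WT library, cKO library 1 stood well above the other two, and the WT libraries were close together. The mean was 7.75 ± 3.01 CPM in cKO nuclei and 3.37 ± 0.187 CPM in WT nuclei (SD, n = 3 each), a 2.30-fold difference (log2 fold change 1.20, SE 0.31, 95% interval 0.58 to 1.83). The adjusted p of edgeR was 0.0718, which misses the threshold. Tenm3 ranked 94 by p among the 13115 genes. The call turned on the processing: the adjusted p was 0.0491 with scaling by library size alone, 0.0132 with no filter on low counts and 0.0255 without cKO library 2. Without cKO library 1 the log2 fold change was 0.83 (adjusted p = 0.476). Within the pair of Xist-high libraries Tenm3 was at 11.2 CPM in cKO nuclei and 3.48 CPM in WT, and within the other 4 at 5.87 and 6.16 CPM in cKO nuclei and 3.48 and 3.16 CPM in WT.

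Tenm3 lies on chromosome 8 (48225665 to 49522824, GRCm38), and its span of 1297160 bases was the longest of the 10. The 3 tested genes whose log2 CPM followed it most closely over the 6 libraries were Cdk16, a cyclin-dependent kinase (Pearson r = 0.984), Tnr, which encodes the matrix protein tenascin-R (0.983), and Vav2, a guanine nucleotide exchange factor (0.983). With 6 libraries and 13115 genes such values describe a shared shape only. Tnr was at 91.4, 76.1 and 81.3 CPM in cKO nuclei and 68.9, 70.5 and 65.9 CPM in WT nuclei (adjusted p = 0.195). It was picked for its likeness to Tenm3, so its peak in cKO library 1 is no separate observation.

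Tenm1 is X-linked (chromosome X, 42527866 to 43429168) and was the most abundant teneurin by count, with 77.4% of all teneurin counts. It was at 261, 312 and 253 CPM in the cKO libraries and 257, 201 and 254 CPM in the WT libraries. The genotypes overlapped, since cKO library 3 lay below WT libraries 1 and 3, and the spread came from cKO library 2 at the top and WT library 2 at the bottom. Its mean was 275 ± 32.2 CPM in cKO nuclei and 237 ± 31.4 CPM in WT nuclei (log2 fold change 0.21, SE 0.10, unadjusted p = 0.0383, adjusted p = 0.386). The Xist-high libraries, at 261 CPM in cKO nuclei and 257 CPM in WT, lay within the range of the others, so Tenm1 did not separate with Xist. The log2 fold change was 0.31 with the replicates 1 of both genotypes left out (adjusted p = 0.354) and 0.11 without cKO library 2 or without WT library 2, where the unadjusted p was 0.234 and 0.248.

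Tenm2, whose protein pairs with latrophilins at synapses, was at 47.9, 38.8 and 30.9 CPM in the cKO libraries and 35.7, 34.4 and 34.2 CPM in the WT libraries. The cKO libraries lay on both sides of the WT libraries, which were tightly grouped. The log2 fold change was 0.18 with a 95% interval of -0.11 to 0.46 (adjusted p = 0.670). It was 0.0048 without cKO library 1 (adjusted p = 0.999) and 0.32 without cKO library 3 (adjusted p = 0.390). Tenm4, which in mice is needed for the maturation of oligodendrocytes, was at 48.1, 26.9 and 33.6 CPM in cKO nuclei and 29.0, 24.0 and 31.3 CPM in WT. Here too the genotypes overlapped and cKO library 1 was on top. The log2 fold change was 0.36 (95% interval -0.01 to 0.74, adjusted p = 0.448), and it was 0.10 without cKO library 1 (adjusted p = 0.906). The summed level of 12 oligodendrocyte markers was 427, 331 and 733 CPM in cKO nuclei and 470, 408 and 276 CPM in WT, and the part of these markers in the Tenm4 values was not tested.

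Among the latrophilins, Adgrl1 was by far the highest, with 77.6% of the counts of the family. It was at 721, 729 and 672 CPM in the cKO libraries and 669, 614 and 667 CPM in the WT libraries. The genotypes did not overlap, as for Tenm3 and Adgrl3 and for 7.88% of all tested genes in that direction (8.39% in the other), but cKO library 3 and WT library 1 lay only a few CPM apart. The mean was 708 ± 31.2 CPM in cKO nuclei and 650.1 ± 30.9 CPM in WT, a log2 fold change of 0.12 (SE 0.07, 95% interval -0.02 to 0.26, adjusted p = 0.510). Of the 10 members it had the narrowest interval.

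Adgrl2 had the second largest fold change of the 10. It was at 42.9, 38.1 and 26.3 CPM in the cKO libraries and 27.7, 21.3 and 14.0 CPM in the WT libraries (298, 247 and 171 counts in cKO, and 183, 153 and 115 in WT). The genotypes overlapped by cKO library 3 and WT library 1 alone, and the libraries within a genotype spread widely. The mean was 35.8 ± 8.53 CPM in cKO nuclei and 21.0 ± 6.85 CPM in WT nuclei (SD, n = 3 each), a 1.71-fold difference with a log2 fold change of 0.78 (SE 0.26, 95% interval 0.19 to 1.38, unadjusted p = 0.0158, adjusted p = 0.278). In each genotype the Xist-high library was the highest, with 42.9 CPM in cKO nuclei and 27.7 CPM in WT. The other libraries were at 38.1 and 26.3 CPM in cKO nuclei and 21.3 and 14.0 CPM in WT. Each side of that split holds too few libraries to show whether the genotypes separate. With a term for the Xist-high libraries, the log2 fold change was 0.79 with an adjusted p of 0.0157. The adjusted p was 4.81e-05 with no filter on low counts and 0.0212 without WT library 1, against 0.695 without WT library 2. Over all alternatives the log2 fold change stayed positive, between 0.55 and 1.03.

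Adgrl3, a latrophilin that binds both FLRT3 and teneurins, was at 191, 173 and 169 CPM in the cKO libraries and 158, 167 and 152 CPM in the WT libraries. Every cKO library lay above every WT library, with cKO library 3 just above WT library 2. The mean was 178 ± 11.6 CPM in cKO nuclei and 159 ± 7.70 CPM in WT nuclei (log2 fold change 0.16, SE 0.08, 95% interval -0.0039 to 0.33, adjusted p = 0.440). Without cKO library 1 the log2 fold change was 0.11 (adjusted p = 0.813).

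None of the 3 FLRT genes was at an unadjusted p below 0.05 in edgeR. Flrt1 held 74.4% of the counts of its family, at 102, 109 and 97.1 CPM in the cKO libraries and 97.8, 85.4 and 94.8 CPM in the WT libraries, which overlapped (log2 fold change 0.15, 95% interval -0.03 to 0.33, adjusted p = 0.541). Flrt3, an FLRT protein that pairs with ADGRL3 across the synapse, was at 25.5, 27.3 and 24.8 CPM in cKO nuclei and 25.7, 21.6 and 26.8 CPM in WT. Its libraries were fully mixed, with a log2 fold change of 0.06 (95% interval -0.22 to 0.35, adjusted p = 0.904), which was -0.02 without WT library 2. Flrt2, which in mice acts as a repulsive cue in the migration of cortical neurons, was at 7.19, 5.71 and 9.85 CPM in cKO nuclei and 9.22, 9.33 and 8.25 CPM in WT. It was the 1 member with a negative log2 fold change (-0.23, 95% interval -0.72 to 0.25, adjusted p = 0.757), and cKO library 3 held the highest value of all 6. With 1 library left out its log2 fold change ran from -0.46 (without cKO library 3) to -0.07 (without cKO library 2).

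Flrt1 and Flrt3 each lie within the span of a larger gene on the opposite strand, Flrt1 in Macrod1 and Flrt3 in Macrod2, both of which encode macrodomain hydrolases of ADP-ribose. The use of strand in the authors' counting is not given in the sources used here. Macrod1 was at 13.3 ± 1.52 CPM in cKO nuclei and 13.8 ± 1.14 CPM in WT nuclei (log2 fold change -0.05, adjusted p = 0.947), and Macrod2 at 46.2 ± 6.67 CPM in cKO nuclei and 51.3 ± 4.10 CPM in WT nuclei (-0.15, adjusted p = 0.670). Both hosts share 0 exonic bases with the FLRT gene in the GENCODE M21 annotation. Inside Tenm4 lie the noncoding genes Gm15412, with 12, 7 and 3 counts in cKO and 5, 1 and 6 in WT, and Gm15413, with 4, 4 and 2 counts in cKO and 1, 1 and 4 in WT. The microRNA genes Mir708 and Mir6394 also lie there, with at most 3 counts in a library.

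Levels of different genes were compared per kilobase of exon, from the union of all GENCODE M21 exons of each gene. On that scale Adgrl1 led, at 82.4 ± 3.63 CPM per kb of exon in cKO and 75.7 ± 3.60 in WT. Flrt1 (17.5 ± 1.01 in cKO, 15.8 ± 1.10 in WT), Tenm1 (15.5 ± 1.81 in cKO, 13.4 ± 1.77 in WT) and Adgrl3 (10.0 ± 0.651 in cKO, 8.94 ± 0.434 in WT) followed. Per kilobase of exon, the leading members of the families were thus Tenm1, Adgrl1 and Flrt1. Next were Flrt3 (5.32 ± 0.271 in cKO, 5.08 ± 0.566 in WT), Tenm2 (3.42 ± 0.741 in cKO, 3.03 ± 0.0679 in WT), Adgrl2 (2.52 ± 0.601 in cKO, 1.48 ± 0.483 in WT) and Tenm4 (1.72 ± 0.515 in cKO, 1.34 ± 0.179 in WT). Flrt2 (0.983 ± 0.271 in cKO, 1.16 ± 0.0768 in WT) and Tenm3 (0.757 ± 0.294 in cKO, 0.329 ± 0.0182 in WT) were the lowest, and the order of means was the same in both genotypes. The libraries of Flrt1 and Tenm1, of Tenm2 and Adgrl2 and of Flrt2 and Tenm3 overlapped in cKO, those of Tenm4 and Flrt2 in WT, and those of Adgrl2 and Tenm4 in both. Per kilobase of the whole span, Adgrl1 was still the highest and Tenm3 still the lowest. Flrt3, whose span is the shortest at 13279 bases, stood second on that scale, above Flrt1.

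**Figure D3:**
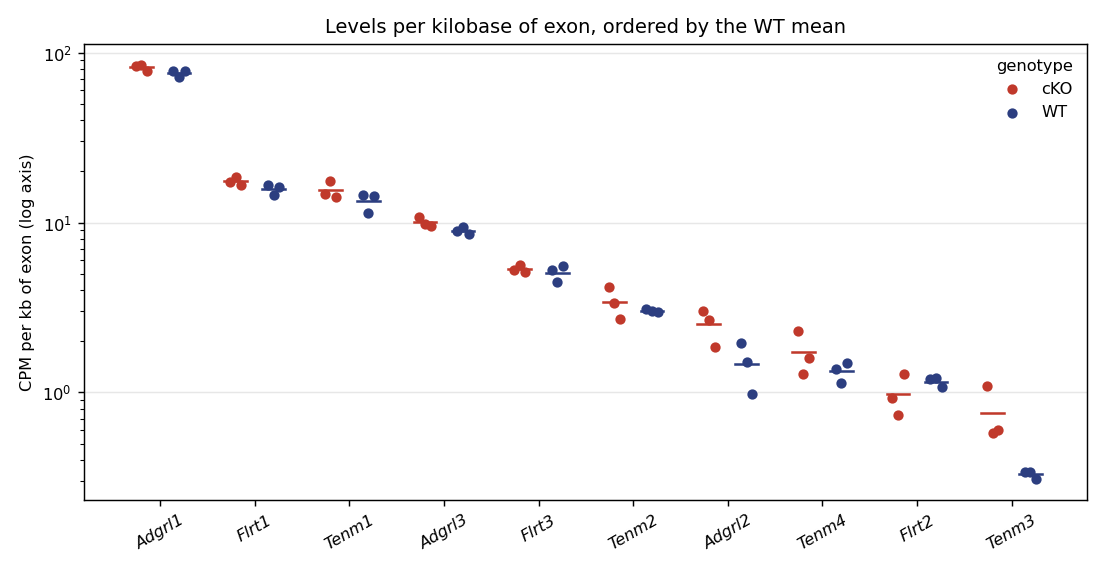
CPM per kilobase of exon (log axis) of the 10 genes, ordered by the WT mean, in the 3 cKO libraries (red, left) and the 3 WT libraries (blue, right), with a bar at the mean. Adgrl1 stands apart at the top (82.4 in cKO, 75.7 in WT), and Tenm3 is last in both genotypes (0.757 in cKO, 0.329 in WT).

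**Figure D4:**
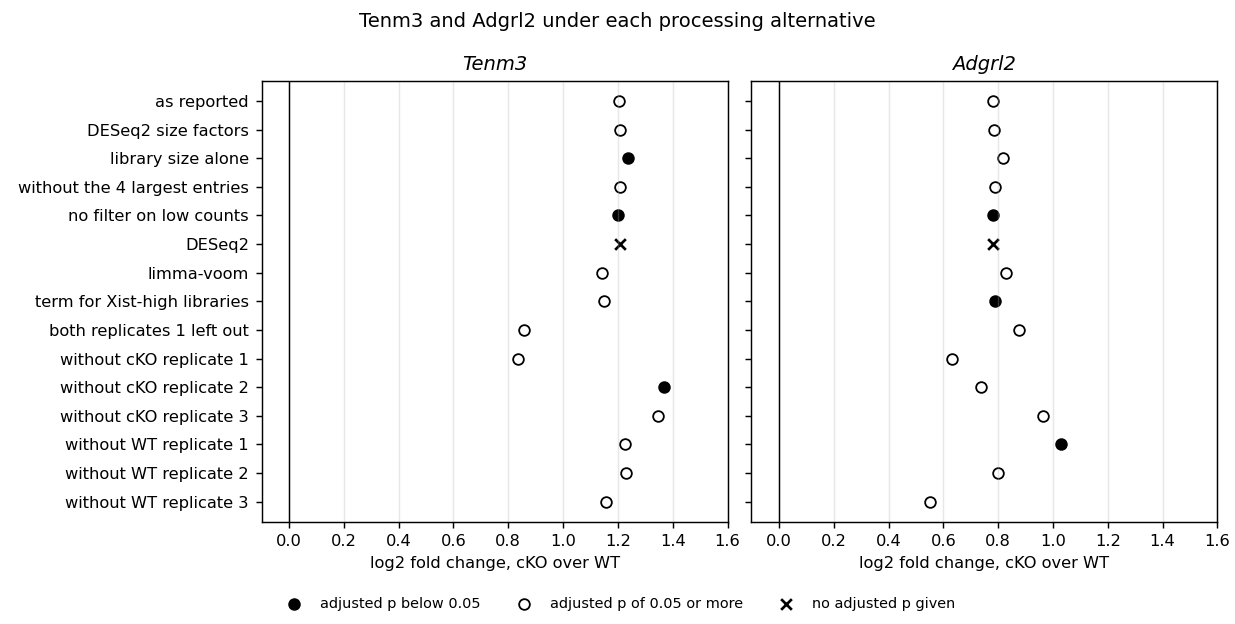
Log2 fold change of Tenm3 and Adgrl2, cKO over WT, as reported and under the processing alternatives other than the replicate block, with filled points where the adjusted p was below 0.05 and crosses where DESeq2 gave none. All points lie above 0, and leaving out cKO replicate 1 moves Tenm3 to 0.83.

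The summed level of the 4 teneurins was 369, 384 and 323 CPM in the cKO libraries and 325, 263 and 323 CPM in the WT libraries. That of the 3 latrophilins was 955, 941 and 867 CPM in cKO nuclei and 855, 803 and 832 CPM in WT, and that of the 3 FLRT genes was 135, 142 and 132 CPM in cKO nuclei and 133, 116 and 129.9 CPM in WT. The ratio of the means was 1.18 for teneurins, 1.11 for latrophilins and 1.08 for FLRT genes. The libraries did not overlap for the latrophilin sum, which Adgrl1 dominates. Of the 10 members, 5 had their highest value in cKO library 1 (Tenm2, Tenm3, Tenm4, Adgrl2 and Adgrl3), 4 in cKO library 2 and 1 in cKO library 3, and 5 had their lowest in WT library 2. In a principal component analysis of all genes, the first component held 28.4% of the variance, and cKO library 1 and WT library 2 lay at the ends, at 27.3 and -28.4. The part of such library differences in the members' values was not tested.

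Long genes as a whole leaned the same way, which was looked at after the members' values were seen. Of the 486 tested genes with a span of 300 kb or more, 62.8% had a positive log2 fold change (median 0.07), against 46.2% of the 3270 genes under 10 kb (median -0.03). The 5 members of that length, the 4 teneurins and Adgrl3, all had positive values. Of the 1536 genes of 100 to 300 kb, which include Adgrl2, 59.2% were positive. The part of gene length in the members' values was not tested.

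**Figure D5:**
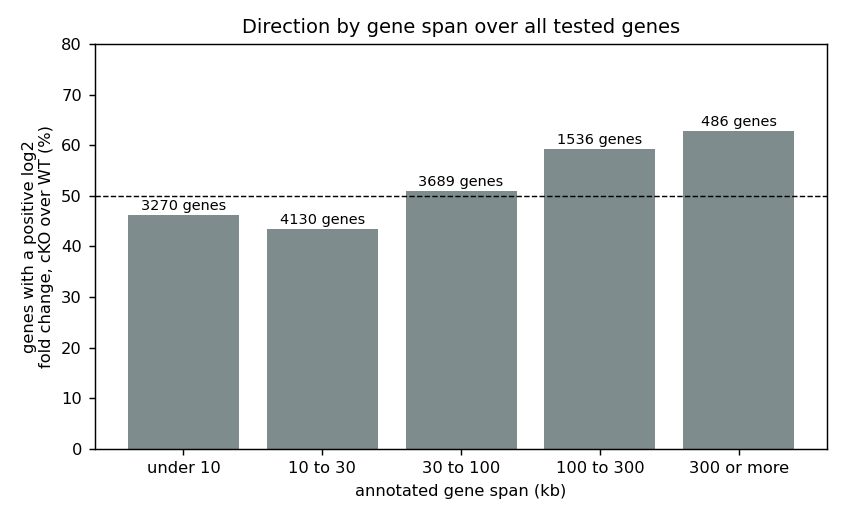
Share of all tested genes (bars, in percent) with a positive log2 fold change, cKO over WT, by annotated gene span in kilobases, with the number of genes above each bar and a dashed line at 50%. The share is 43.4% for genes of 10 to 30 kb and 62.8% for those of 300 kb or more.

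Other genes of the same adhesion system were described from lists. Of 22 partners of these families (UNC5 receptors, neurexins, FGF receptors, SHANK scaffolds, G protein alpha subunits and others), all were tested and 0 were called by any of edgeR, DESeq2 (which gave no adjusted p to 7) and limma-voom. At an unadjusted p below 0.05 in edgeR there were 2 of the 22, both positive, and 0 to 4 with 1 library left out, where 11.9% of all tested genes were at that threshold in either direction. Their log2 fold changes were positive for 14 and negative for 8, with a median of 0.03. Smallest in p were Shank2, which encodes a postsynaptic scaffold (242 ± 28.6 CPM in cKO, 207 ± 25.1 CPM in WT, log2 fold change 0.22, adjusted p = 0.329), Gna12 (0.43, adjusted p = 0.417) and Gnao1 (0.13, adjusted p = 0.535). The summed level of the partners was 5188 ± 189 CPM in cKO nuclei and 5106 ± 80.2 CPM in WT.

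Of 17 other adhesion G protein-coupled receptors, 11 were tested, 8 positive and 3 negative (median 0.10), and 0 were called by edgeR, limma-voom or DESeq2, which gave no adjusted p to 5. There were 2 of the 11 at an unadjusted p below 0.05 in edgeR, both positive (0 to 3 with 1 library left out), beside the 5.80% of all tested genes that were higher. Adgrg1, also known as GPR56, was at 15.5, 9.42 and 12.3 CPM in cKO nuclei and 10.4, 3.20 and 7.16 CPM in WT nuclei (log2 fold change 0.85, adjusted p = 0.305). The log2 fold change was 0.17 for Celsr2, a planar polarity cadherin (adjusted p = 0.386), and 0.10 for its relative Celsr3 (adjusted p = 0.593). Adgrl4, the endothelial relative of the latrophilins, had at most 4 counts in a library and was not tested. Of 28 leucine-rich repeat adhesion genes, a group to which the FLRT proteins are kin, 25 were tested, 18 positive and 7 negative (median 0.12). Again 0 were called by edgeR, limma-voom or DESeq2, which gave no adjusted p to 15. There were 5 of the 25 at an unadjusted p below 0.05 in edgeR, all positive, beside the same 5.80% of all tested genes. That number was 1 without cKO library 1 and 3 in DESeq2. Lrrn1 was at 32.9, 49.9 and 31.2 CPM in cKO nuclei and 28.3, 28.3 and 29.5 CPM in WT nuclei (log2 fold change 0.40, adjusted p = 0.256). The log2 fold change was 0.25 for Ntrk3, a neurotrophin receptor (adjusted p = 0.303), and 0.77 for Lrrtm4, a postsynaptic organiser (adjusted p = 0.325).

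Markers of other cells that a NeuN gate could let through overlapped between the genotypes when summed over their lists. The 12 oligodendrocyte markers leaned the same way as 9 of the 10 members: all 12 had a positive log2 fold change (median 0.27), and the ratio of their mean summed levels, cKO over WT, was 1.29. Of their sums, given beside Tenm4, that of cKO library 3 alone lay above all WT libraries. None of the 12 was at an unadjusted p below 0.05 in edgeR, and 0 were called by edgeR, limma-voom or DESeq2, which gave no adjusted p to 8. Their part in the members' values was not tested. The 10 Purkinje cell markers were at 1020, 859 and 908 CPM in cKO nuclei and 1101, 849.9 and 898 CPM in WT, and the 12 interneuron markers at 276, 263 and 257 CPM in cKO nuclei and 256, 298 and 270 CPM in WT. The 7 unipolar brush cell markers were at 581 to 620 CPM in cKO nuclei and 581 to 613 CPM in WT, the 10 astroglial markers at 139 to 150.2 CPM in cKO nuclei and 125 to 154 CPM in WT, and the 9 microglial markers at 23.7 to 28.8 CPM in cKO nuclei and 18.0 to 36.7 CPM in WT. Markers of vessels, meninges and choroid plexus were at 17.6 to 30.0 CPM in cKO nuclei and 23.5 to 28.0 CPM in WT. Within the unipolar brush cell list, Eomes, a transcription factor of these cells, stood apart, at 21.6, 18.7 and 21.1 CPM in cKO nuclei and 15.7, 6.13 and 8.98 CPM in WT. Its log2 fold change was 1.00 (edgeR unadjusted p = 0.000874, adjusted p = 0.0868). In that list edgeR called 0 genes and limma-voom called 1 higher. DESeq2 called 0 and gave no adjusted p to 2. The part of Eomes in the values of Tenm3 and Adgrl2 was not tested.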

How the data were processed

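Nuclear RNA was sequenced in 3 cKO and 3 WT libraries. The authors deposited whole-number read counts per gene, not normalized, under NCBI gene identifiers, made with Subread against mm10, per the submitters' processing notes. Not given in the sources used here are Subread's version, the annotation, the strand setting and the handling of reads with several matches. Of 24594 entries, 24570 matched RefSeq GRCm38.p6, which gave symbols, spans and start-site sequences, and exon lengths came from GENCODE M21 of the same assembly. No entry was a total or lacked a name.

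The main test was that of edgeR 4.0.16 in R 4.3.3 (filterByExpr defaults, TMM, robust glmQLFit and glmQLFTest, two-sided, genotype as the single term, all 6 libraries), with Benjamini-Hochberg adjustment over 13115 genes and a threshold of 0.05. Standard errors and 95% intervals are from that fit. DESeq2 1.42.0 and limma 3.58.1 (voom) were alternatives, beside other scalings, no filter, a term for Xist-high libraries and leaving libraries out. The procedure was tested on simulated data with changes of 2-fold or more, so that test does not bear on the detection of smaller differences. Pairs of libraries within each genotype differed by more than sampling noise (chi-square of 4.05 to 5.05 per gene), so no pair was treated as 1 library deposited under both numbers. That spread does not show that the libraries came from separate animals. Precision follows counts: Tenm3 had 23 to 78 per library and Adgrl1 4365 to 5492.

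The members, lists and tests were chosen with earlier results of these data known. The text names all 10 members, Ezh1, overlapping genes with counts, the 3 smallest p of each partner list and the 3 genes most like the member of smallest p. Neurod1, Neurod2, Pcp2, Cx3cr1, Cldn5, Gad1, Mbp, Opalin, Eomes and Adgrl4 were named after their values were seen.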

Additional observations from a re-analysis of the deposited data

How the results depend on the processing

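Of 150 values of single members under the alternatives, 7 came to pass the threshold (3 for Tenm3, 4 for Adgrl2) and 1 changed sign, Flrt3 at -0.023 without WT replicate 2 (its range with 1 library left out was -0.023 to 0.13). For 5 members DESeq2 gave the same direction with no adjusted p, and the other values kept their direction and their side of the threshold. The number of members called was 0 as reported and 1 with scaling by library size alone (Tenm3), 2 with no filter on low counts (Tenm3 and Adgrl2), 1 with the Xist-high term (Adgrl2) and 0 to 1 with a library left out. The number within 2-fold was 7 to 9 throughout. Over all genes, 42 were called higher and 34 lower. These counts were 69 higher with library size alone, 146 higher and 131 lower with no filter, 58 lower with DESeq2, 23 and 19 with limma-voom, 65 and 60 with the Xist-high term, 23 and 20 with the replicates 1 of both genotypes left out, and 10 to 116 higher and 3 to 133 lower with 1 library left out. The cause was not tested. Same-numbered libraries were not paired by the labels, and their deviations correlated at 0.15, 0.01 and -0.04, with cKO libraries 2 and 3 closest to WT libraries 3 and 2, so the numbers were not taken as pairs. The libraries 1, both Xist-high, had the highest correlation of the 9 cKO and WT combinations. With the replicate block, 49 genes were higher, 41 lower and 1 member was called, Adgrl2 (log2 fold change 0.79, adjusted p = 0.00981). Library size alone moved the median of all genes by 0.03. The fold changes of Tenm3, Flrt2 and Adgrl2 are the least precise, as counts there are low or the libraries spread.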
